A study of Homo sapiens with 4 samples.

Results

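The genes described here are the 5 subunits of the small nuclear RNA activating protein complex (SNAPc), SNAPC1, SNAPC2, SNAPC3, SNAPC4 and SNAPC5, with the RNA polymerase III (Pol III) initiation factors BRF1 and BRF2 and the Pol III repressor MAF1. These 8 genes were taken by name from 58560 genes with an annotated transcript, after transcript counts had been summed to genes by Ensembl ID. All 8 were among the 24527 genes that passed the filter on low counts. They were chosen by name and not by a threshold, but the list was drawn up with their measured differences between deprived and control cells already known. The adjusted p-values of the members therefore describe these libraries and are no independent evidence. The libraries came from A549, a human lung adenocarcinoma line that the labels give as alveolar basal epithelial. The 2 deprived libraries were from cells washed with PBS and kept in glutamine-free DMEM with serum, for 24 hours by the label of deprived replicate 1 and 25 hours by that of deprived replicate 2. The treatment protocol states 24 hours. The 2 control libraries were from cells labelled as having no treatment, and all the cells were grown in DMEM with serum and antibiotics. Nothing in the labels says that replicates came from separate cultures, so the p-values measure the spread between these libraries, which may be technical.

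SNAPc binds the proximal sequence element upstream of small nuclear RNA genes. At promoters that also hold a TATA box, as in the genes for U6 snRNA, 7SK RNA and RMRP RNA, it works with a TFIIIB that contains BRF2, TBP and BDP1 and recruits Pol III. At promoters without a TATA box, as in the genes for U1, U2, U4 and U5 snRNA, it recruits RNA polymerase II instead. BRF1 is the partner of TBP and BDP1 in the TFIIIB that serves tRNA and 5S rRNA genes. MAF1 binds Pol III and represses it when nutrients or growth signals are low, and its activity is set largely by phosphorylation, which RNA levels do not show.

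The comparison asked how RNA levels after a day without glutamine differ from those in control cells. SNAPC1, BRF2 and SNAPC5 were higher in deprived cells, SNAPC2 was lower, and SNAPC3, SNAPC4, BRF1 and MAF1 did not pass the test. In the quasi-likelihood test of edgeR, adjusted over all tested genes after Benjamini and Hochberg, 3 of the 8 were called higher and 1 lower at an adjusted p under 0.05. Over all tested genes 49.6% were called, 25.2% higher and 24.4% lower, and among the 15411 tested protein-coding genes 64.1% were called, 34.3% higher and 29.8% lower. The 4 called of 8 thus lie near or below the background. The median log2 fold change was 0.16 over the 8 genes and -0.06 over all genes tested. In bulk RNA, a change in the cells of a type and a change in RNA per cell cannot be told apart.

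RefSeq promoter windows (GRCh38.p14), from 250 bases before to 50 bases after a transcript start, are shown for the pair of SNAPc subunits that rose and for 2 that did not. Capitals mark matches to the motifs searched. The first is SNAPC1 at chr14:61762170-61762469 on the plus strand, then SNAPC5 at chr15:66497713-66498012 on the minus strand, SNAPC3 at chr9:15422626-15422925 on the plus strand and SNAPC2 at chr19:7920088-7920387 on the plus strand.
SNAPC1: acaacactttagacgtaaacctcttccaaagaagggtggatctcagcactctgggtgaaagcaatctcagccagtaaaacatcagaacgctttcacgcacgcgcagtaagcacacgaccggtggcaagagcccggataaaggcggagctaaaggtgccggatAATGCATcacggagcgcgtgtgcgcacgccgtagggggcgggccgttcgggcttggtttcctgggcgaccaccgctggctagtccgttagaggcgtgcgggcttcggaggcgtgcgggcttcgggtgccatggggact
SNAPC5: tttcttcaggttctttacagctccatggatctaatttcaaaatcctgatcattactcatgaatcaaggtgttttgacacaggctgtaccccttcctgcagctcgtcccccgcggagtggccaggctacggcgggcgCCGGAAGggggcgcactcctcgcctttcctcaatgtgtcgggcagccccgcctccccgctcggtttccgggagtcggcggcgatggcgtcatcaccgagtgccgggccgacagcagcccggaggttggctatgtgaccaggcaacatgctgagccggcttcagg
SNAPC3: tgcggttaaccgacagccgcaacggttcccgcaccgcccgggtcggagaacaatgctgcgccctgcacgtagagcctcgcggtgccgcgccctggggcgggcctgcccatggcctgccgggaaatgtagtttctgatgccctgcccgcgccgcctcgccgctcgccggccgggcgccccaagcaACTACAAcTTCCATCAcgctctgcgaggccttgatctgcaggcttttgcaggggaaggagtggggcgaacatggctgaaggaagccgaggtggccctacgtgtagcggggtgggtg
SNAPC2: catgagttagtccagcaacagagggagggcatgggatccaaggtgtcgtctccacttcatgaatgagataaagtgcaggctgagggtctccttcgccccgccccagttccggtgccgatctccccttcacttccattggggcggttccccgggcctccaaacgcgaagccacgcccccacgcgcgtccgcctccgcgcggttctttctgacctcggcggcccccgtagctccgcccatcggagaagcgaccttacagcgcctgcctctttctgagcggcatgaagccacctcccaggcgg
The motifs, searched on both strands and chosen after these windows had been seen, were the E-box CACGTG, the cyclic AMP response element TGACGTCA, the amino acid response element TGATGNAA, the ETS core CCGGAAG, the NRF1 core GCGCATGC, the TATA box TATAAA, and parts of the ZNF143 element, ACTACAA and AATGCAT. The SNAPC1 window held 1 match, AATGCAT, whose first base lies at -88 from the start. This motif is found in 2.10% of 35116 promoter windows of this length. The SNAPC5 window held CCGGAAG at -114, found in 10.3% of windows. The SNAPC3 window held ACTACAA at -66, found in 2.77% of windows, and near it on the other strand, without overlap, TGATGNAA at -58, found in 3.62%. The SNAPC2 window held none of the 8 motifs. The windows of SNAPC1 and SNAPC5 shared no match, and neither held the amino acid response element as spelled here. A match is a run of letters, not a measured binding site.

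SNAPC1 encodes a core subunit that contacts TBP and the complex's largest subunit. It had 340.0 CPM in deprived replicate 1 and 318 CPM in deprived replicate 2, against 16.2 and 15.9 CPM in control replicates 1 and 2. CPM here are TMM-scaled counts per 1000000, and behind them stood 35508 and 34520 estimated counts in deprived cells and 1849 and 1747 in control cells. The groups were far apart, and each pair of libraries lay close together. The mean was 329 ± 15.5 CPM in deprived cells and 16.0 ± 0.231 CPM in control cells (SD, n = 2 each), a log2 fold change of 4.36 ± 0.08 (SE), or 20.5-fold (edgeR adjusted p = 8.64e-06). It ranked 175th from the top of the 24527 genes by log2 fold change. SNAPC1 (ENSG00000023608; chromosome 14, 61762357 to 61796428, plus strand, GRCh38) has 1 annotated transcript, of 10 exons and 2656 bases. Of these exon bases, 565 are shared with a non-coding gene on the same strand, ENSG00000258964, which had 0.871 and 0.516 CPM in deprived cells and 0.341 and 0.363 CPM in control cells, far below SNAPC1 in every library.

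SNAPC5 encodes the smallest subunit, which helps hold the complex together. It had 70.0 and 62.5 CPM in deprived cells, against 24.4 and 24.1 CPM in control cells. Both deprived libraries lay above both controls. The log2 fold change was 1.45 ± 0.08, or 2.73-fold (edgeR adjusted p = 5.33e-05). SNAPC5 lies on chromosome 15, from 66490135 to 66497813 on the minus strand. Its exons share 216 of 2509 bases with MAP2K1 on the opposite strand, which itself had 119 and 120.2 CPM in deprived cells against 64.8 and 66.4 CPM in control cells, and 583 bases with an annotated non-coding gene of 3.03 to 4.46 CPM on its own strand. The strand setting of the counting is not given in the sources used here, so reads in the stretch shared with MAP2K1 cannot be told apart.

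SNAPC2, a subunit not needed for basal transcription in reconstituted systems, was the only one called lower. It had 14.1 and 12.2 CPM in deprived cells, against 20.3 and 18.1 CPM in control cells. The groups did not overlap, but the distance between them was small beside those of SNAPC1 and SNAPC5. The log2 fold change was -0.55 ± 0.12 (edgeR adjusted p = 0.0113). The call was lost without control replicate 1 (-0.48, edgeR adjusted p = 0.0505).

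SNAPC3 and SNAPC4 hold the DNA contacts of the complex, SNAPC4 through its Myb repeats. SNAPC4 had 10.0 and 9.94 CPM in deprived cells and 9.30 and 9.01 CPM in control cells, from 993 to 1079 counts per library. Its log2 fold change of 0.13 ± 0.12 did not pass (edgeR adjusted p = 0.425), and it turned to -0.21 with library size in place of TMM scaling. SNAPC3 had 37.0 and 39.2 CPM in deprived cells and 41.9 and 39.8 CPM in control cells, a log2 fold change of -0.10 ± 0.08 (edgeR adjusted p = 0.315). With library size only, SNAPC3 was called lower (-0.44, edgeR adjusted p = 0.00885).

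BRF2, the TFIIIB factor of SNAPc-dependent Pol III promoters, rose, whereas BRF1, the factor of tRNA promoters, did not pass the test. BRF2 had 76.7 and 64.7 CPM in deprived cells, against 16.3 and 18.6 CPM in control cells, a log2 fold change of 2.02 ± 0.12, or 4.04-fold (edgeR adjusted p = 5.33e-05). The deprived libraries lay well above the controls, with a wider spread between replicates than for SNAPC1. BRF2 lies on chromosome 8, from 37843268 to 37849904 on the minus strand. Its exons share 1629 of 2760 bases with ADGRA2 on the opposite strand, a receptor gene that had 18.7 and 18.0 CPM in deprived cells and 6.97 and 6.95 CPM in control cells. ADGRA2 was thus also higher in deprived cells, at a lower level than BRF2 in every library, and its part in the BRF2 value was not tested. BRF1 (chromosome 14, 105209286 to 105315589, minus strand) had 21.5 and 20.5 CPM in deprived cells and 20.4 and 22.8 CPM in control cells. Its groups overlapped, with a log2 fold change of -0.04 ± 0.10 (edgeR adjusted p = 0.778), and with library size only it was called lower (-0.37, edgeR adjusted p = 0.0148). Of 13167 BRF1 exon bases, 627 are shared with BTBD6 and 417 with PACS2, both on the opposite strand. BTBD6 had 20.6 and 19.9 CPM in deprived cells and 30.4 and 28.7 CPM in control cells. PACS2 had 25.8 and 25.1 CPM in deprived cells and 30.9 and 33.8 CPM in control cells. Their part in the BRF1 value was not tested.

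MAF1 (chromosome 8, 144104499 to 144107611, plus strand) had 198 and 153 CPM in deprived cells, against 155 and 151 CPM in control cells. Deprived replicate 1 stood above the rest, while deprived replicate 2 lay between the controls. The log2 fold change of 0.20 ± 0.13 did not pass (edgeR adjusted p = 0.248). It was called higher without deprived replicate 2 (0.38, edgeR adjusted p = 0.0138) and turned to -0.15 with library size only. Among the 8 genes, 6 had groups that did not overlap in CPM, as did 76.5% of all tested genes.

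**Figure D1:**
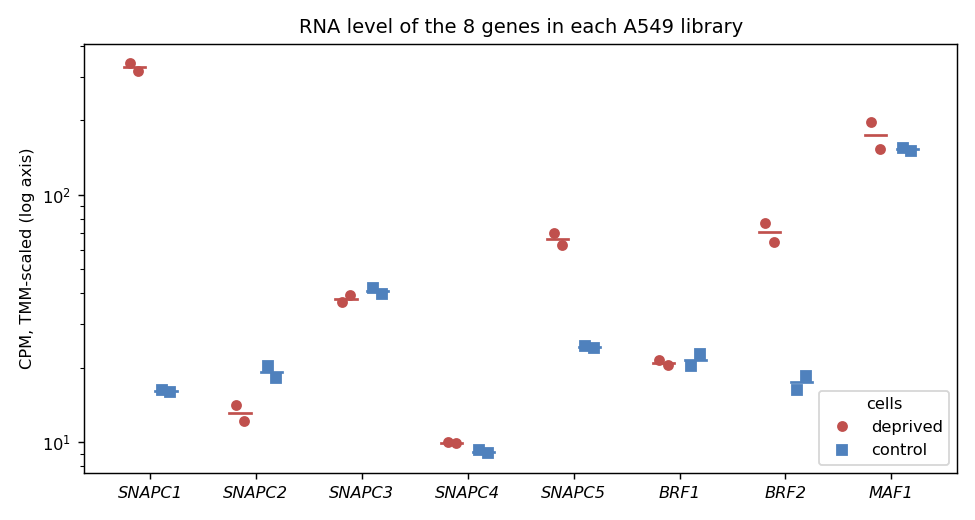
TMM-scaled CPM on a log axis for each of the 8 genes in the 2 deprived libraries (red circles) and the 2 control libraries (blue squares), with horizontal lines at the group means. SNAPC1 lies at 318 to 340.0 CPM in deprived cells and 15.9 to 16.2 CPM in control cells, while SNAPC3, SNAPC4 and BRF1 have groups that nearly coincide.

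**Figure D2:**
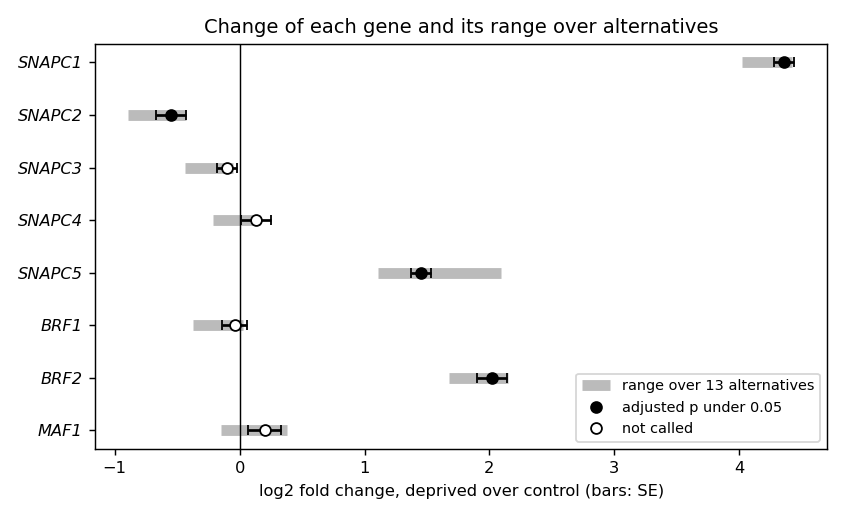
Log2 fold change (deprived over control) for each gene, with its SE, and the range over 13 alternative settings as a grey bar. The bars of SNAPC1, SNAPC5 and BRF2 stay above 1 and that of SNAPC2 below 0, while those of SNAPC4, BRF1 and MAF1 cross 0.

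Levels of different genes were compared per length, as TPM, transcripts per 1000000, computed from the estimated counts and not TMM-scaled. The TPM total also holds short RNAs such as RN7SK, at 53766 and 47113 TPM in deprived cells and 36887 and 44812 TPM in control cells. TPM values therefore order genes within a library and do not give a gene's change between groups. MAF1 and SNAPC4, for example, had lower mean TPM in deprived cells, but log2 fold changes of 0.20 and 0.13, neither called. In deprived cells SNAPC1 had the highest level, 199 ± 11.3 TPM (SD, n = 2), above MAF1 with 168 ± 13.7 TPM, and their libraries did not overlap. SNAPC5 followed with 100.4 ± 1.60 TPM and BRF2 with 44.1 ± 0.448 TPM. SNAPC3 (15.5 ± 1.09 TPM) and BRF1 (15.3 ± 0.665 TPM) did not differ beyond their spread, SNAPC2 was at 14.2 ± 0.0164 TPM, and SNAPC4 was lowest with 3.32 ± 0.384 TPM. In control cells the order differed. MAF1 was highest with 186 ± 19.2 TPM, followed by SNAPC5 with 42.2 ± 3.67 TPM and SNAPC2 with 26.5 ± 4.17 TPM. SNAPC3 (19.4 ± 2.27 TPM) and BRF1 (17.0 ± 1.81 TPM) again overlapped. BRF2 was at 14.3 ± 0.159 TPM, SNAPC1 was the lowest but 1 with 12.3 ± 1.24 TPM, and SNAPC4 had 3.86 ± 0.376 TPM. With the longest transcript as length, BRF2 (16.4 and 16.3 TPM) lay above BRF1 (14.0 and 13.7 TPM) in control cells, and SNAPC2 (16.4 and 16.6 TPM) above SNAPC3 (11.7 and 14.4 TPM) in deprived cells.

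These levels changed the proportions of the subunit mRNAs within each library. SNAPC1 made up 58.8% and 60.8% of the summed TPM of the 5 SNAPc subunits in deprived cells, against 11.7% and 11.9% in control cells. SNAPC4, the scaffold of the complex, made up 0.940% and 1.06% in deprived cells and 3.66% and 3.74% in control cells. For each SNAPC4 transcript there were 62.6 and 57.6 SNAPC1 transcripts in deprived cells and 3.19 and 3.17 in control cells. This ratio of TPM values is taken within a library, so the choice of scaling does not enter it. Similarly, the ratio of BRF2 to BRF1 was 2.99 and 2.77 in deprived cells and 0.778 and 0.920 in control cells. With the longest annotated transcript as each gene's length this ratio was 5.22 and 4.62 in deprived cells and 1.17 and 1.2 in control cells, so which of the pair was more abundant in control cells depends on the length used. SNAPC1 to SNAPC4 then stood at 63.8 and 60.3 in deprived cells and 3.28 and 3.32 in control cells.

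**Figure D3:**
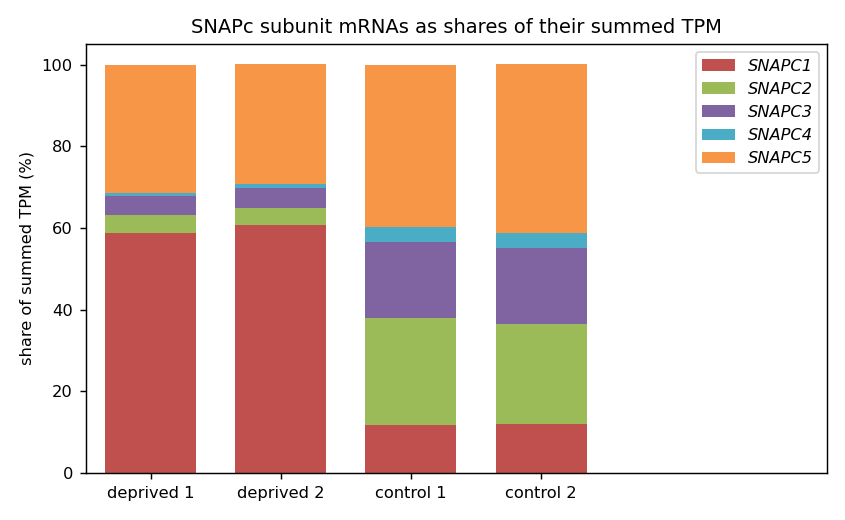
Stacked bars of the 5 SNAPc subunit mRNAs as percent of their summed TPM in each library, deprived libraries first. SNAPC1 takes 58.8% and 60.8% in the deprived libraries and 11.7% and 11.9% in the controls.

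The files also divide each gene's counts among its annotated transcripts, which shows which transcripts carried a gene's value. Such values are estimates, since transcripts of a gene share most of their exons. In a fit over all 83759 tested transcripts, 1.67% were called, 1.12% higher and 0.542% lower. Of 56 annotated transcripts of the 8 genes, 38 were tested, and edgeR called 3 higher and 0 lower. At an unadjusted p under 0.05, 9 were higher and 6 lower, where 12.9% and 13.0% of all tested transcripts were. DESeq2 called 10 higher and 6 lower, and 15.3% and 14.8% of all tested transcripts. The 3 called by edgeR were SNAPC1-201 (4.34 ± 0.11, edgeR adjusted p = 0.0301), BRF2-201 (2.03 ± 0.18, edgeR adjusted p = 0.0480) and SNAPC5-202 (2.13 ± 0.18, edgeR adjusted p = 0.0446). BRF2-201, of 4 exons and 2603 bases, held 99.6% and 98.9% of the BRF2 counts in deprived cells and 97.5% and 96.2% in control cells, so BRF2 was in effect a gene of 1 transcript here.

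The increase of SNAPC5 fell unevenly on its transcripts. SNAPC5-202, a protein-coding transcript of 3 exons, held 52.0% and 62.2% of the gene's counts in deprived cells, against 33.8% and 35.9% in control cells. The 3 transcripts annotated as targets of nonsense-mediated decay, a pathway that degrades mRNAs with a premature stop codon, together held 30.6% and 33.2% in deprived cells and 57.0% and 58.9% in control cells. The groups did not overlap for either share, but how often this holds over all transcripts was not computed. The main one of them, SNAPC5-208, had 11.2 and 13.4 CPM in deprived cells and 9.55 and 9.02 CPM in control cells (0.40 ± 0.24, not called, edgeR adjusted p = 0.375), so its level differed far less than that of SNAPC5-202, which had 36.5 and 38.5 CPM in deprived cells and 8.34 and 8.74 CPM in control cells. SNAPC5-202 shares 96.7% of its bases with SNAPC5-208, which holds 772 bases more. SNAPC5-206, another decay target, had 9.98 and 6.93 CPM in deprived cells and 4.3 and 4.72 CPM in control cells. It was at 0.91 ± 0.33 and was not called (edgeR adjusted p = 0.201). The coding transcript SNAPC5-201 held 16.7% and 3.66% of the counts in deprived cells and 8.04% and 4.97% in control cells. Its deprived libraries thus lay far apart. When only protein-coding transcripts were summed, the log2 fold change of SNAPC5 was 2.09 in place of 1.45.

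In SNAPC3 the shares ran the other way. The decay target SNAPC3-206 held 32.8% and 23.0% of the counts in deprived cells, against 8.72% and 14.4% in control cells, and the coding transcript SNAPC3-202 held 65.6% and 74.7% in deprived cells, against 85.0% and 81.2% in control cells. Neither transcript was called (edgeR adjusted p = 0.179 and 0.311). The other decay target, SNAPC3-205, held 0.699% and 1.41% in deprived cells, against 4.57% and 3.24% in control cells. It was not called either (edgeR adjusted p = 0.147). Together the 2 decay targets held 33.5% and 24.4% in deprived cells, against 13.3% and 17.6% in control cells. All 2524 bases of SNAPC3-206 also lie in SNAPC3-202, which is 5680 bases long.

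BRF1 and MAF1 were not called as genes. Some of their transcripts held different shares in the deprived and control libraries, although edgeR called none of these transcripts. How often shares differ in this way over all transcripts was not computed. In MAF1, the transcript MAF1-205 held 51.8% and 58.9% of the counts in deprived cells, against 34.0% and 32.0% in control cells, and MAF1-201 held 46.1% and 39.1% in deprived cells, against 64.8% and 66.7% in control cells. These annotated transcripts start 13 bases apart and differ otherwise in 1 intron: MAF1-205 keeps as exon 90 bases that MAF1-201 splices out. MAF1-205 had 102 and 89.2 CPM in deprived cells and 53.3 and 48.8 CPM in control cells (0.91 ± 0.14, edgeR adjusted p = 0.0727). In BRF1, BRF1-203 and BRF1-213 held 35.5% ± 0.523 and 33.6% ± 2.24 of the counts in deprived cells, against 6.03% ± 3.30 and 3.37% ± 1.56 in control cells (SD, n = 2 each). BRF1-211 held 2.22% ± 3.15 in deprived cells and 43.3% ± 16.5 in control cells. It had 0 and 99 counts in the deprived libraries and 737 and 1380 in the controls. BRF1-203 shares 98.9% of its bases with BRF1-211 and lacks 81 bases that BRF1-211 holds. BRF1-213 is a short transcript of 4 exons that shares 36.5% of its bases with BRF1-211 (3.29 ± 0.46, edgeR adjusted p = 0.0646).

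The main annotated transcripts of SNAPC2, SNAPC2-201 and SNAPC2-206, start 699 bases apart, and RefSeq has a promoter window near each start. SNAPC2-201, from the upstream start, held 72.7% and 80.6% of the counts in deprived cells and 68.7% and 55.5% in control cells. SNAPC2-206, from the downstream start, held 26.1% and 16.2% in deprived cells and 30.7% and 43.4% in control cells. SNAPC2-206 was at -1.34 ± 0.45 and SNAPC2-201 at -0.28 ± 0.28 on the log2 scale, and neither was called (edgeR adjusted p = 0.187 and 0.589).

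**Figure D4:**
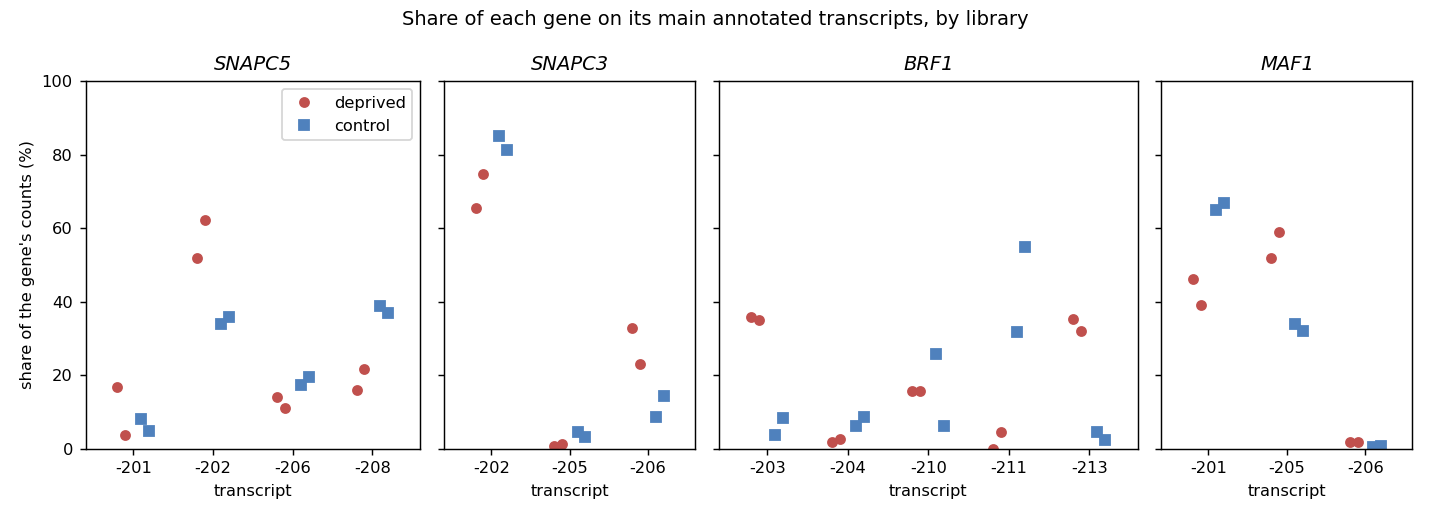
Percent of each gene's counts on its main annotated transcripts in the 2 deprived libraries (red circles) and the 2 control libraries (blue squares), for SNAPC5, SNAPC3, BRF1 and MAF1. MAF1-205 lies at 51.8% and 58.9% in deprived cells and at 34.0% and 32.0% in control cells, while BRF1-210 and BRF1-211 differ widely between the control libraries.

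The other genes of the Pol III machinery, from lists fixed with earlier results of these data known, changed in both directions. Of 18 subunits of Pol III, including those shared with the other polymerases, 8 rose and 2 fell (median 0.00 on the log2 scale). The smallest p-values were those of CRCP, POLR3D, POLR3C and POLR3F. CRCP, of the stalk of the enzyme, had 150.1 and 154 CPM in deprived cells and 43.7 and 40.6 CPM in control cells (1.85 ± 0.07, edgeR adjusted p = 2.04e-05). POLR3D, of the subcomplex that works in termination and reinitiation, had 82.2 and 82.7 CPM in deprived cells and 25.1 and 22.0 CPM in control cells (1.81 ± 0.09). POLR3C and POLR3F, of the trimer that contacts TFIIIB, rose by 1.22 ± 0.09 and 1.24 ± 0.09. The POLR3F call was lost when only protein-coding transcripts were summed (0.88, edgeR adjusted p = 0.187). The alternative subunits POLR3G and POLR3GL were not called, at -0.13 ± 0.36 and -0.60 ± 0.38. POLR3GL was called lower without deprived replicate 1 (-1.23, edgeR adjusted p = 0.0122). With library size only, 8 of the subunits rose and 8 fell.

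Of 9 partners in TFIIIB and the assembly factors TFIIIC and TFIIIA, 2 rose and 1 fell (median 0.02). BDP1, which both kinds of TFIIIB contain, had 143 and 155 CPM in deprived cells and 59.6 and 54.3 CPM in control cells (1.39 ± 0.08, edgeR adjusted p = 6.49e-05). TBP had 13.4 and 12.0 CPM in deprived cells and 12.3 and 11.2 CPM in control cells, which overlap (0.11 ± 0.12, not called). Its value turned to -0.58 when only protein-coding transcripts were summed, also not called (edgeR adjusted p = 0.0974). Among the mRNAs for TFIIIB proteins, those of BDP1 and BRF2 thus rose, and those of TBP and BRF1 did not pass. GTF3C5 fell (-0.85 ± 0.13), GTF3C4 was not called (0.13 ± 0.07), and GTF3C1 rose by 0.33 ± 0.07. The GTF3C1 call was lost without control replicate 2 (0.28, edgeR adjusted p = 0.0741), and its value was -0.01 with library size only, where 1 partner rose and 4 fell.

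Of 24 partners in snRNA transcription and 3' processing, 12 rose and edgeR called 0 lower (median 0.36). At an unadjusted p under 0.05, 13 were higher and 2 lower, and DESeq2 and limma-voom each called 13 higher and 1 lower. The direction of this list depends on the scaling: 10 were called higher and 4 lower with upper-quartile factors, and 6 higher and 10 lower with library size only. ELL, an elongation factor of the little elongation complex, had 29.2 and 25.7 CPM in deprived cells and 6.76 and 6.30 CPM in control cells (2.07 ± 0.11, edgeR adjusted p = 4.74e-05). INTS6, INTS2 and INTS9 of the Integrator complex, which cleaves the 3' ends of snRNA precursors, rose by 1.21 ± 0.08, 1.02 ± 0.07 and 0.83 ± 0.10. Most of the other Integrator subunits in the list were not called.

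Of 13 regulators of Pol III, 8 rose and 3 fell (median 0.50), and with library size only 5 rose and 4 fell. MYC, an activator of Pol III through TFIIIB, had 265 and 218 CPM in deprived cells and 58.4 and 60.4 CPM in control cells (2.02 ± 0.11, edgeR adjusted p = 4.25e-05). RB1, which restrains Pol III, rose by 0.77 ± 0.07. The RB relative RBL1 fell to 30.7 and 28.2 CPM in deprived cells, against 74.8 and 77.9 CPM in control cells (-1.38 ± 0.08). CSNK2A1, the catalytic subunit of casein kinase 2, which phosphorylates MAF1 and TFIIIB, rose by 1.08 ± 0.08, a call lost when only protein-coding transcripts were summed (0.40, edgeR adjusted p = 0.299). It has a near-identical retrogene, so its value is uncertain. Across the 4 lists the share called ran from 33.3% to 84.6%, against 64.1% of tested protein-coding genes. The share called higher ran from 22.2% to 61.5%, against 34.3% of those genes. The share called lower ran from 0.0% to 23.1%, against 29.8%.

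**Figure D5:**
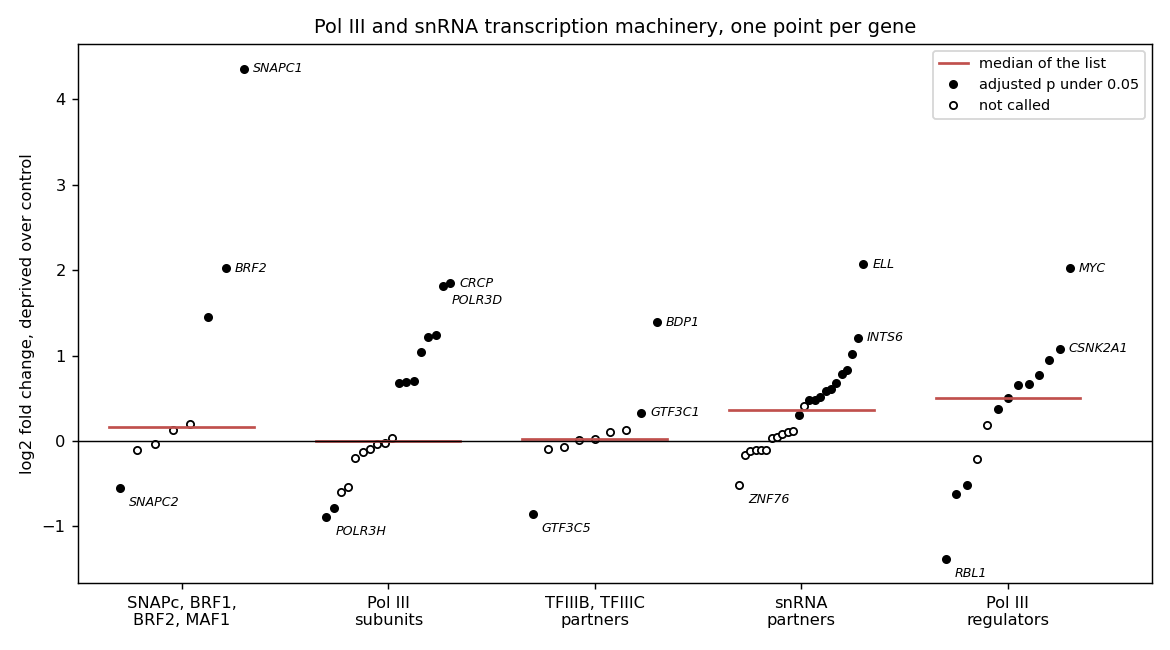
Log2 fold change (deprived over control), 1 point per gene, for the 8 genes and the 4 lists of partner genes, filled where the edgeR adjusted p was under 0.05, with the list median as a red line. SNAPC1 at 4.36 lies above every gene of the 4 lists, whose highest is ELL at 2.07.

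The RNA products of SNAPc-dependent and other Pol III genes were also in the files, although poly-T beads were used to purify mRNA and these RNAs lack a poly(A) tail. RN7SK, RMRP, RPPH1, RN7SL1 and RN7SL2 together took 4.46% and 3.47% of counts in deprived cells and 3.20% and 4.33% in control cells, which overlap. RN7SK, the 7SK RNA that restrains the elongation kinase P-TEFb, had 11817 and 8942 CPM in deprived cells and 5610 and 7708 CPM in control cells. The deprived libraries were higher, with replicates far apart, and the difference did not pass (0.64 ± 0.22, edgeR adjusted p = 0.0506). It lies close to the threshold: 5 of 12 alternatives called it higher, with log2 fold changes of 0.30 to 0.87 and adjusted p of 0.0176 to 0.21 over all of them. RMRP, RPPH1, RN7SL1 and RN7SL2 were not called either, with log2 fold changes from -0.03 to 0.50. Of the 20 products listed, 9 were tested and 2 were called higher, or 22.2%, near the 25.2% of all genes. At an unadjusted p under 0.05, 4 were higher, and limma-voom called 3. The copy number of RN7SK, RN7SL and related pseudogenes makes their counts uncertain. The other 15 products together took 0.000388% of counts or less in each library. Of these RNU4-2 (134 and 115 counts in deprived cells, 35 and 56 in control cells; 1.52 ± 0.36, edgeR adjusted p = 0.0150) and RNU11 (208 and 129 counts in deprived cells, 83 and 90 in control cells; 1.04 ± 0.33, edgeR adjusted p = 0.0436) rose. Both are Pol II transcribed snRNAs, and such low counts of tailless RNAs need not follow their levels in the cell.

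By Euclidean distance in centred log2 CPM over the 4 libraries, 9518 protein-coding genes averaging 10 CPM or more were searched, and those closest to SNAPC1 were CSRNP1 (distance 0.059), CD274 (0.067) and SPX (0.104). CSRNP1 had 505 and 468 CPM in deprived cells and 23.4 and 22.4 CPM in control cells. The genes closest to SNAPC2, the member with the largest decrease, were PEX10 (0.029), FAAP100 (0.044) and ROBO1 (0.051). With 4 libraries in 2 groups this likeness says little beyond a like size of change.

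The libraries held 123414592 and 120425759 estimated counts in deprived cells and 101496318 and 101982373 in control cells. Replicates correlated at r = 0.979 (deprived) and r = 0.982 (control) across genes in log2 CPM, although genes are not independent replicates. All 5 epithelial markers were at 1 CPM or more on average and fell, and their summed level was 2018 and 1730 CPM in deprived cells against 7571 and 7682 CPM in control cells. Of 8 alveolar type II markers, 3 averaged at least 1 CPM, and SFTPA1 was at 0. The 3 were ABCA3 (mean 28.2 CPM in deprived and 41.2 CPM in control cells), NAPSA (0.746 and 2.12 CPM) and LAMP3 (2.81 and 0.251 CPM). Of 6 tested markers of this type, 3 were called lower, ABCA3 and NAPSA among them, and 1, LAMP3, was called higher. The summed levels of fibroblast and endothelial markers were 3.44 CPM or less in each library, and those of blood markers were 0.756 and 0.875 CPM in deprived cells and 26.6 and 12.7 CPM in control cells, mostly CD14 and HBB. The part of these markers in the values above was not tested.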

How the data were processed

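RNA of A549 cells was sequenced in 4 libraries, 2 of deprived and 2 of control cells. Per the submitters' processing notes, the tools were DESeq2 1.20.0, HISAT2 2.0.5 and featureCounts 1.5.0-p3, with no role given, and the build was hg38 (GRCh38). The annotation, the strand setting and the tool that divided reads among transcripts are not given there. The authors deposited, per the file headers, counts for 229420 transcripts, which are whole numbers and were treated as estimated counts, because transcripts that hold all exons of another can have fewer. GENCODE 29 matched 205306 transcripts, with 98.0% to 98.2% of each library's counts, and these were summed to genes. The 24114 others were left out, so a gene's sum can be partial.

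Genes were filtered with filterByExpr, scaled with TMM (factors 0.862 and 0.919 for deprived, 1.147 and 1.10 for control libraries) and tested with edgeR 4.0.16 (glmQLFit, glmQLFTest, two-sided, Benjamini-Hochberg) in R 4.3.3; the transcripts were tested the same way. The common biological coefficient of variation came to 0.21. An SE is the absolute log2 fold change over the root of the F statistic. The code was tested on simulated data. The members and lists were chosen with earlier results of these data known. Named were the 8 genes, up to 4 genes per list with the smallest p, TBP, BDP1, POLR3G, POLR3GL, MYC and RB1, transcripts of at least 1 CPM or 10% of a gene, and the 3 genes most alike; a gene that this rule names is not reported here. RMRP was taken by the Ensembl ID that current gene names keep. Alternatives were RLE, upper-quartile and library-size scaling, no filter, a minimum of 50 counts in 2 or more libraries, DESeq2 1.42.0, limma-voom (limma 3.58.1), the replicate number as a block, protein-coding transcripts alone, each library left out, and for TPM the longest transcript. A deposited table of long non-coding RNAs held none of the 8 genes and was not used.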

Additional observations from a re-analysis of the deposited data

How the results depend on the processing

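SNAPC1, SNAPC5 and BRF2 stayed called higher under all 13 alternatives, with log2 fold changes of 4.02 to 4.42, 1.11 to 2.09 and 1.68 to 2.15. SNAPC4 was called under none of them. SNAPC2, SNAPC3, BRF1 and MAF1 each changed their call under 1 of 13, given beside their values. The count of members called lower was 3 with library size only, against 1, and ran from 0 to 1 when each library was left out. Library size only, which puts the median over all genes at -0.40 in place of -0.06 and the share of calls that are higher at 32.8% in place of 50.8%, also called 16 Pol III subunits (10 with TMM) and 5 TFIIIB and TFIIIC partners (3 with TMM), turned the snRNA partners to 6 higher and 10 lower (12 and 0 with TMM) and the regulators to 5 higher and 4 lower (8 and 3), and put GTF3C1 at -0.01. The member transcripts called by edgeR, 3 in all, were 1 with library size only, 0 with no filter, 5 with the stricter filter, 16 with DESeq2, and 0 to 0 when each library was left out. Calls of single transcripts are therefore not stable here; the cause was not tested. With the longest transcript of each gene as its length, SNAPC1 made up 69.1% of the summed TPM of the SNAPc subunits in deprived cells, against 59.8%. The labels do not say whether same-numbered libraries belong together. Their deviations from the group means correlated at -0.023, and with 2 libraries a group this value cannot decide whether they were paired. The replicate block left 10608 genes called, against 12156, changed no call among the 8 genes, and called 0 of their transcripts. With 2 libraries a group, precision rests on the spread between libraries; counts of 993 or more per library stood behind every member.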
